A study of Mus musculus with 12 samples.

Results

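Transcripts of enteroendocrine cells, the hormone-secreting cells of the gut epithelium, were followed in the colon of mice with and without dextran sulfate sodium (DSS) colitis. The 10 genes were Neurod1, Chga, Chgb, Tph1, Sst, Gcg, Pyy, Insl5, Cck and Sct. They were chosen by name, with earlier results of these data known. All 10 were measured, and they stand among 19938 genes that had a probe set for exactly 1 gene. Each gene was read from 1 probe set, the brightest where there were several.

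Expression was measured in colon tissue of 12 wild-type male C57BL/6 mice, aged 8 weeks and 3 days, with 1 array per mouse and 3 mice per group. Control mice drank water throughout. Control+L-Arg mice received 1% L-arginine (L-Arg) in the water for the last 4 days of the 10-day protocol and no DSS. DSS mice received 4% DSS, a polymer that injures the colonic epithelium, for 6 days and plain water afterwards. DSS+L-Arg mice received the same DSS, then 1% L-Arg over the last 4 days. The model is a chemical injury, and the mice carried no altered allele. The labels describe 1 piece of colon per mouse, and the general methods of the study describe a proximal and a distal piece combined. The values are log2 signals after robust multichip averaging (RMA), and the array medians lay between 6.49 and 6.64. A signal is compared here only with the same gene in other mice, because probe sets differ in their affinity.

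Enteroendocrine cells are scattered singly in the epithelium and arise from progenitors through transcription factors such as NEUROG3 and NEUROD1. They store peptides or serotonin in dense-core granules whose matrix holds chromogranins. In the colon the main kinds are enterochromaffin cells, which make serotonin, D cells, which make somatostatin, and L cells, which make proglucagon products and peptide YY and, toward the distal end, INSL5. These cells share part of their gene program with neurons, and somatostatin is also made by some enteric neurons.

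The mean level of general epithelial markers differed little between the mice. Of 13 such markers, limma called none between DSS and control (1 higher at an unadjusted p under 0.05, against 7.96% of all genes). Against control+L-Arg none was called either. At an unadjusted p under 0.05, 5 were higher in DSS+L-Arg (8.95% of all genes) and 3 in DSS (9.82% of all genes). Their mean level by mouse stayed between -0.17 and 0.13 on the log2 scale, relative to control. Inflammatory cell markers differed between the groups. In DSS against control, 6 of 8 neutrophil markers and 8 of 12 macrophage markers were higher at an adjusted p under 0.05, against 1.8% of all genes. In DSS+L-Arg against DSS, 3 and 4 of them were lower, against 0.522% of all genes. The mean of the 10 smooth muscle markers lay between -1.26 and -0.77 in the DSS mice and between -0.37 and 0.63 in the control mice. None of the 10 was called, but 5 were lower at an unadjusted p under 0.05, against 11.6% of all genes. Of 10 mast cell markers, 2 were called higher in DSS than in control, against 1.8% of all genes. They were the mast cell proteases Mcpt1 (2.31, adjusted p = 0.0053 by limma) and Mcpt2 (2.81, adjusted p = 0.0015), and against control these 2 were also called higher in the DSS+L-Arg mice. The next largest rise was that of Hdc (1.39, adjusted p = 0.14). Kit (-0.94, adjusted p = 0.20) and Fcer1a (-0.03) had lower means in DSS, and the median of the list was 0.23. Averaged over the 10 markers, the level lay between -0.08 and 0.06 in control, 0.07 and 0.17 in control+L-Arg, 0.46 and 0.77 in DSS and 0.47 and 0.64 in DSS+L-Arg mice. The part of these cell types in the results below was not tested, except where a fit with their level is given.

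Somatostatin carried the largest of the 10 differences between DSS and control mice. The Sst signal was 11.01, 11.71 and 11.99 in control mice 1, 2 and 3, and 10.55, 10.24 and 8.99 in DSS mice 1, 2 and 3. It was 11.75, 11.51 and 11.50 in the control+L-Arg mice and 9.19, 11.02 and 10.23 in the DSS+L-Arg mice. Every DSS mouse lay below every mouse that had received no DSS, and DSS+L-Arg 2 reached the lowest control mouse. The difference between DSS and control was -1.64 on the log2 scale (SE 0.46, 95% interval -2.66 to -0.63), a 3.13-fold lower mean. Its adjusted p by limma was 0.072, so Sst did not pass the threshold of 0.05. In whole tissue, fewer cells of a kind and less RNA per cell cannot be told apart.

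Across all 10 genes, limma called 0 between DSS and control at an adjusted p under 0.05, where 4.03% of all genes were called in either direction. The unequal-variance test called 0. The share of all genes that it called was not counted. In the same comparison limma called 4 genes of the wider lists below, and the unequal-variance test called 0. It gave these 4 adjusted p between 0.45 and 0.50. With so few mice per group it could hardly call a gene after adjustment. Its missing calls, here and below, are therefore not read as evidence against a difference. At an unadjusted p under 0.05 by limma there were 2, Sst and Neurod1, and 19.6% of all genes passed this. At the stricter size rule of the study (a change over 2-fold with p under 0.01), Sst alone passed, as did 0.813% of all genes in the same direction. Sst was also the only gene of the 10 whose DSS and control mice did not overlap, a property of 14.3% of all genes in that direction and 25% in either. Leaving out DSS 1 gave Sst a difference of -1.96 (adjusted p = 0.042 by limma), and leaving out DSS+L-Arg 1, which enters only the shared spread, gave an adjusted p of 0.044. These were the only 2 of the 12 fits with 1 mouse left out that called Sst. Over the 12 fits its difference ran from -1.96 to -1.18, with adjusted p by limma from 0.042 to 0.24.

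**Figure D1:**
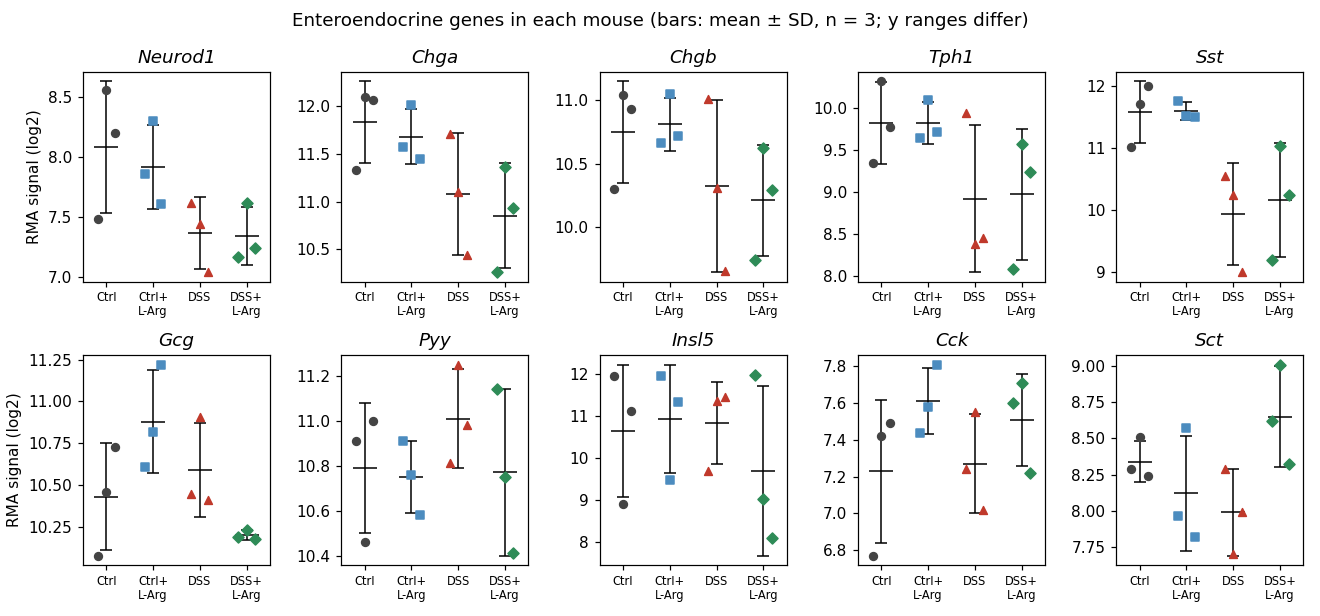
RMA signal (log2, y axis) of the 10 genes in each mouse by group (x axis), with 1 point per mouse and the mean ± SD of 3 mice in black, and Ctrl standing for control. The DSS points of Sst (8.99 to 10.55) lie below all control and control+L-Arg points, and Insl5 spreads from 8.09 to 11.98 with high and low mice in every group.

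Neurod1, the transcription factor that keeps committed endocrine cells in differentiation, had the second smallest p. Its signal was 7.48, 8.56 and 8.20 in control, 7.86, 8.30 and 7.61 in control+L-Arg, 7.62, 7.44 and 7.04 in DSS and 7.17, 7.62 and 7.24 in DSS+L-Arg mice. Control 1 was as low as the mice given DSS, so the groups overlapped. The difference between DSS and control was -0.71 ± 0.27 (SE, adjusted p = 0.17 by limma), and it was -0.47 without control 2 and -1.01 without control 1.

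Chga and Chgb encode chromogranins, matrix proteins of the secretory granule. The Chga signal was 11.33, 12.10 and 12.06 in control, 11.57, 12.01 and 11.45 in control+L-Arg, 11.71, 11.10 and 10.44 in DSS and 10.26, 11.36 and 10.93 in DSS+L-Arg mice. The Chgb signal was 10.30, 11.04 and 10.93 in control, 10.66, 11.05 and 10.72 in control+L-Arg, 11.01, 10.31 and 9.65 in DSS and 9.74, 10.62 and 10.29 in DSS+L-Arg mice. DSS 1 stayed within the control range for both genes, and DSS 3 lay below all control mice. The differences between DSS and control were -0.75 ± 0.35 for Chga and -0.43 ± 0.32 for Chgb (SE), with adjusted p of 0.26 and 0.52 by limma. Without DSS 3 they were -0.42 and -0.10, and without DSS 1 they were -1.06 and -0.77.

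Tph1 encodes tryptophan hydroxylase 1, the enzyme of the rate-limiting step of serotonin synthesis in enterochromaffin cells. Its signal was 9.35, 10.32 and 9.77 in control, 9.64, 10.10 and 9.71 in control+L-Arg, 9.94, 8.38 and 8.45 in DSS and 8.08, 9.57 and 9.24 in DSS+L-Arg mice. DSS 1 again lay among the control mice, while DSS 2 and DSS 3 lay below the lowest of them. The difference between DSS and control was -0.89 ± 0.45 (SE, adjusted p = 0.31 by limma). It was -0.62 without DSS 2 and -1.40 without DSS 1.

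The L-cell hormones did not share this order. Gcg, which encodes proglucagon, the source of GLP-1 and GLP-2, had signals of 10.08, 10.46 and 10.73 in control and 10.45, 10.91 and 10.41 in DSS mice, a difference of 0.17 ± 0.19 (SE). Pyy, which encodes the satiety peptide YY, had 10.91, 10.46 and 11.00 in control and 10.81, 11.25 and 10.98 in DSS mice, a difference of 0.22 ± 0.20. For both hormones the groups overlapped, and the 95% intervals, -0.26 to 0.59 for Gcg and -0.21 to 0.65 for Pyy, include 0.

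Insl5, which encodes an insulin-family peptide of distal colonic L cells, varied most of the 10 from mouse to mouse. Its signal was 11.95, 8.89 and 11.12 in control, 11.96, 9.48 and 11.34 in control+L-Arg, 9.70, 11.36 and 11.45 in DSS and 11.98, 9.02 and 8.09 in DSS+L-Arg mice. The 5 low mice, at 8.09 to 9.70, and the 7 high mice, at 11.12 to 11.98, formed separate sets, and each group held at least 1 mouse of each. The difference between DSS and control was 0.18 with an SE of 1.04, so these arrays place it only between -2.10 and 2.47.

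Cck and Sct encode cholecystokinin and secretin, hormones best known from the small intestine. The Cck signal was 6.77, 7.42 and 7.49 in control and 7.24, 7.55 and 7.02 in DSS mice (difference 0.04 ± 0.21, SE). The Sct signal was 8.29, 8.51 and 8.24 in control and 8.29, 7.70 and 7.99 in DSS mice (difference -0.35 ± 0.22, adjusted p = 0.43 by limma). Neither gene separated the groups. Over the 10 genes the median difference was -0.39, against -0.01 over all genes, and 6 of the 10 had a lower mean, against 53.1% of all genes.

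With L-Arg given after DSS, the question is whether these transcripts differed from those of mice given DSS and then water. By limma at an adjusted p under 0.05, 0 of the 10 genes were called between DSS+L-Arg and DSS, where 0.637% of all genes were called. The unequal-variance test called 0, and at an unadjusted p under 0.05 there was 1 gene, Sct, against 13.5% of all genes. The groups did not overlap for 2 genes, Sct and Gcg, against 16.6% of all genes. For Sct the DSS+L-Arg mice had 8.62, 9.01 and 8.32, all just above the DSS mice (8.29, 7.70 and 7.99), a difference of 0.65 ± 0.22 (SE, adjusted p = 0.24 by limma). For Gcg the DSS+L-Arg mice had 10.19, 10.23 and 10.18, all below the lowest DSS mouse at 10.41, a difference of -0.39 ± 0.19 (SE, adjusted p = 0.41 by limma).

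Sst, low in DSS mice, differed between DSS+L-Arg and DSS by 0.22 ± 0.46 (SE), with an interval of -0.80 to 1.24. The differences were 0.04 for Tph1, -0.03 for Neurod1, -0.23 for Chga and -0.11 for Chgb, each with groups that overlapped. For Tph1 the interval was -0.94 to 1.03, which is wide enough to hold both a return to control and a further decrease. Pyy differed by -0.25, Cck by 0.24 and Insl5 by -1.14 with an SE of 1.04, and none passed a threshold. The Insl5 difference was -0.34 without DSS+L-Arg 3 and -2.28 without DSS+L-Arg 1.

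**Figure D2:**
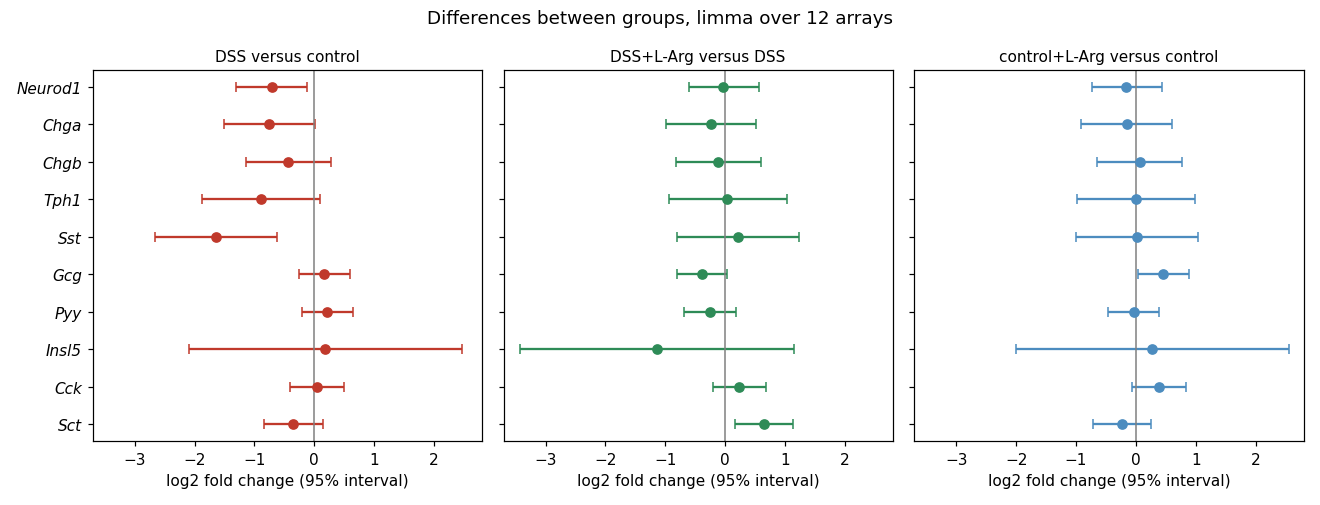
Log2 fold change (x axis) of each gene (y axis) in 3 comparisons, with 95% intervals from limma over all 12 arrays. Sst lies at -1.64 in DSS versus control with an interval of -2.66 to -0.63, Sct lies at 0.65 in DSS+L-Arg versus DSS, and the interval of Insl5 is the widest in each panel.

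Without DSS, L-Arg was accompanied by no called gene of the 10 and none of the whole array (0%) at an adjusted p under 0.05 by limma. The unequal-variance test also called 0 of the 10. At an unadjusted p under 0.05 there was 1 of the 10, Gcg, against 3.44% of all genes. The Gcg signal was 10.61, 10.82 and 11.22 in control+L-Arg mice, and the difference from control was 0.46 ± 0.19 (SE, adjusted p = 1 by limma). The groups overlapped for all 10 genes, and 10.4% of all genes had groups that did not. Cck had 7.44, 7.58 and 7.81 in control+L-Arg mice, a difference of 0.38 ± 0.21. The other 8 genes differed by between -0.23 and 0.27.

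Among mice that received L-Arg, those with DSS were compared with those without. By limma, 0 of the 10 genes were called at an adjusted p under 0.05, against 0.306% of all genes, while 4 had an unadjusted p under 0.05 (Chga, Gcg, Sst and Sct), against 15.6% of all genes. The unequal-variance test called 0. For 5 of the 10 genes the 3 DSS+L-Arg mice lay below all control+L-Arg mice, as was so for 8.13% of all genes. These were Sst (-1.44 ± 0.46), Gcg (-0.68 ± 0.19), Chga (-0.83 ± 0.35), Tph1 (-0.85 ± 0.45) and Chgb (-0.60 ± 0.32, all SE), with adjusted p by limma between 0.15 for Gcg and 0.40 for Chgb. Sst, Chga, Tph1 and Chgb followed each other from mouse to mouse, as given below, so they are not separate observations beside that share. Neurod1 differed by -0.58 ± 0.27 and Sct by 0.53 ± 0.22, with overlapping groups.

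The differences of Gcg and Sct with L-Arg had opposite signs with and without DSS. The Gcg difference was -0.39 after DSS and 0.46 without it, and the interaction was -0.85 ± 0.27 (SE, adjusted p = 0.31 by limma). The Sct difference was 0.65 after DSS and -0.23 without it, and the interaction was 0.88 ± 0.31 (SE, adjusted p = 0.35 by limma). At an adjusted p under 0.05 limma called 0 of the 10 interactions, against 0.0752% of all genes, and at an unadjusted p under 0.05 there were these 2, against 10.8%. The unequal-variance test was not run for the interaction.

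DSS+L-Arg mice were also set against control mice. By limma 0 of the 10 were called, against 0.0652% of all genes, and 3 had an unadjusted p under 0.05, against 12.6%. The unequal-variance test called 0. These 3 were Sst (-1.43 ± 0.46), Chga (-0.98 ± 0.35) and Neurod1 (-0.74 ± 0.27, all SE), with adjusted p of 0.26, 0.29 and 0.30, and for none of the 10 did the groups separate, against 23.2% of all genes. Between DSS and control+L-Arg mice limma and the unequal-variance test called 0 of the 10, against 3.68% of all genes by limma, and 1, Sst (-1.66 ± 0.46, adjusted p = 0.072), had an unadjusted p under 0.05, against 20.4%. In a test for any difference among the 4 groups, limma's F statistic gave 0 calls of the 10, against 2.96% of all genes, and 4 genes had an unadjusted p under 0.05 (Sst, Gcg, Neurod1 and Chga), against 19.8%. Since these comparisons share their control or DSS mice, the values are not independent of those above.

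The 10 genes did not vary as 1 block. Chga, Chgb, Tph1, Sst and Neurod1 followed each other from mouse to mouse. The permutations below shuffled mice across the groups, so their p also count differences between groups. No p was computed for r with group means taken out. Over the 12 mice Chga and Chgb had r = 0.965 and rho = 0.944 (permutation p of 1e-05, the smallest that 100000 resamples can give, and 3e-05, adjusted over 36 pairs 0.00036 and 0.00027). Without the 2 mice farthest from the median of Chga, r was 0.917, and after each group's mean was taken out it was 0.985, so the relation also held within groups.

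Chga and Sst had r = 0.914 and rho = 0.874 (permutation p 8e-05 and 0.00044, adjusted 0.00058 and 0.002), 0.778 without the 2 farthest mice and 0.905 with group means taken out. Chga and Tph1 had r = 0.914 and rho = 0.951 (permutation p 3e-05 and 2e-05, adjusted 0.00036 and 0.00027), 0.807 without the 2 farthest mice and 0.883 with group means taken out. Gcg and Pyy, both L-cell products, had r = 0.0492 and rho = 0.0769 (permutation p 0.88 and 0.82, adjusted 0.91 and 0.92), and 0.0761 without the 2 farthest mice. Pairs with Insl5 were left out of this family, because its values fall into separate sets.

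Promoter sequence is shown for Chga, Chgb and Sst, which are 3 of the 5 genes that varied together and were chosen because they hold one of the cyclic AMP response elements given below, and for Gcg, which did not follow them. The windows of Tph1 and Neurod1, the other 2 of the 5, held none of the letters searched, and neither did that of Pyy. All 10 genes had a RefSeq promoter (assembly GRCm38.p6), and each sequence holds the 150 bases before the annotated start, 5′ to 3′ on the gene's strand. Capitals mark the cyclic AMP response element TGACGTCA, its related form TGACGTAA, and CAGATG or CAGCTG, forms of the E-box that basic helix-loop-helix factors such as NEUROD1 bind. The region is chr12:102554791-102554940 on the plus strand for Chga, chr2:132781492-132781641 on the plus strand for Chgb, chr16:23890845-23890994 on the minus strand for Sst and chr2:62483654-62483803 on the minus strand for Gcg.
Chga: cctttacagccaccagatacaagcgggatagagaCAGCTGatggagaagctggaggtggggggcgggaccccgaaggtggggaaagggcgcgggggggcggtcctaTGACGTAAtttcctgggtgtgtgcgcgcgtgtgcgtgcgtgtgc
Chgb: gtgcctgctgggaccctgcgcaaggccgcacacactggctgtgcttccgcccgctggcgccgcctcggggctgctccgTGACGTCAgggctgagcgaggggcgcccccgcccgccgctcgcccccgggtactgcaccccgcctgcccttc
Sst: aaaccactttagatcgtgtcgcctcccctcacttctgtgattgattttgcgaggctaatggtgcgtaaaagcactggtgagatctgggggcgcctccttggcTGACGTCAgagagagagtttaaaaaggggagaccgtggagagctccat
Gcg: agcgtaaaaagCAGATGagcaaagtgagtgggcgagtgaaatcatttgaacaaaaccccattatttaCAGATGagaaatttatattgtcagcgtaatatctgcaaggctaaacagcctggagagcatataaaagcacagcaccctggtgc

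TGACGTCA, which reads the same on both strands, begins 48 bases before the start of Sst and 72 bases before that of Chgb. It is present in 1.79% of 32851 promoter windows of 300 bases (250 before the start and 50 after). TGACGTAA, searched on both strands, begins 44 bases before the start of Chga and is in 0.5% of windows. CAGATG, also searched on both strands, occurs at 139 and 83 bases before the start of Gcg and in the windows of Insl5, Cck and Sct, against 17.2% of all windows. CAGCTG occurs in the windows of Chga, Chgb and Sct, against 16.3% of all windows. None of these letters overlap one another, and a match is a description of the sequence, not a measured site.

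Insl5 was set against the posterior Hox genes, which mark position toward the distal end of the colon. The 5 mice with the lowest Insl5 were the 5 with the lowest mean of 8 posterior Hox genes (-1.29 to -0.87 relative to control, against -0.50 to 0.62 in the other 7). They were control 2, control+L-Arg 2, DSS 1, DSS+L-Arg 2 and DSS+L-Arg 3. As the mice fall into separate sets no pooled correlation is given. Within the 7 others r was 0.414 and rho 0.286 (exact permutation p 0.41 and 0.56), and r was 0.321 without the 2 farthest, so no relation was detected inside that set. Tph1 ran from 9.24 to 10.32 in the 5 low-Hox mice and from 8.08 to 9.77 in the others, and Pyy from 10.41 to 10.81 and from 10.58 to 11.25. Both pairs of ranges overlap.

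**Figure D3:**
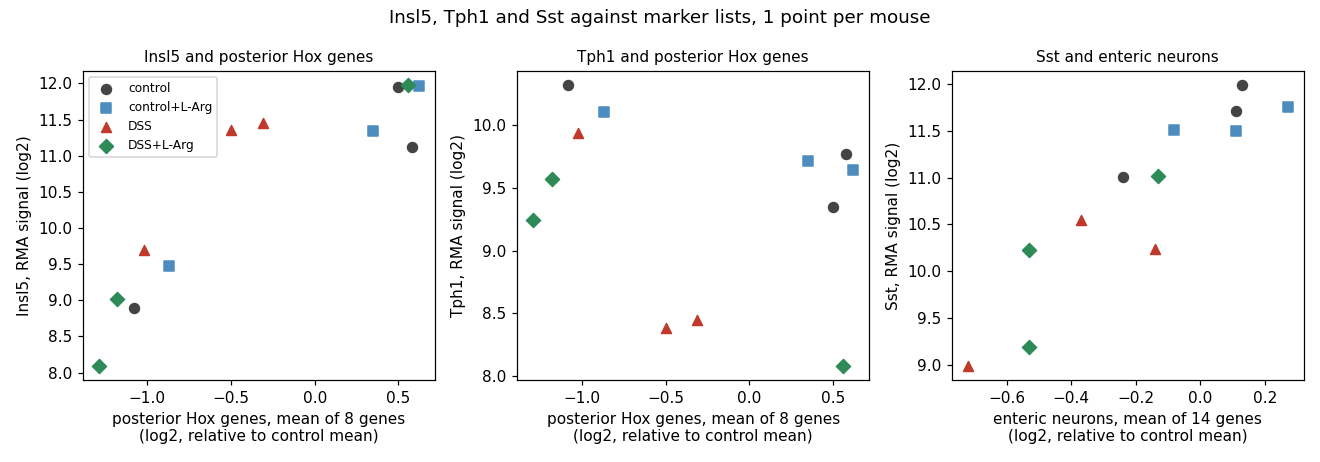
Signal (log2, y axis) of Insl5 and Tph1 against the mean of 8 posterior Hox genes and of Sst against the mean of 14 enteric neuron markers (x axes, log2 relative to the control mean), with 1 point per mouse coloured and shaped by group. Insl5 stays between 8.09 and 9.70 in the 5 mice with a Hox level of -0.87 or lower, and Sst is lowest, at 8.99, in the mouse with the lowest neuronal level.

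With the posterior Hox level added to the limma fit, the DSS and control mice differed by 1.27 for Insl5 (adjusted p = 0.031), -1.89 for Sst (0.032), -1.27 for Tph1 (0.037) and -0.90 for Neurod1 (0.037), so 4 of the 10 genes were called. That fit uses 1 straight line across both sets of mice, although no relation with Insl5 was detected within the 7 higher mice. DSS 2 and DSS 3 had Hox levels of -0.50 and -0.31, and Insl5 of 11.36 and 11.45, within the range of the high mice. The Insl5 difference in that fit depends on the line. Of the 8 posterior Hox genes, 7 had a lower mean in DSS than in control. The share of all genes called with the Hox level was not counted, so the counts from such fits, here and below, have no background. Leaving out single mice from that fit gave between 0 and 6 called genes, with 0 when control 2, control 3 or DSS 3 was absent. With the Hox level the difference between DSS and control+L-Arg called 2 genes, Sst (-1.93, adjusted p = 0.036) and Tph1, and the F test called 2. Between DSS+L-Arg and DSS the same fit called 0, and the Insl5 difference there was -1.09 (adjusted p = 0.12).

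Over all 12 mice, neuronal markers moved with Sst, Chga, Neurod1 and Chgb. The permutations again shuffled mice across the groups. Their p therefore do not separate a relation between mice from a group difference that list and gene share. No p was computed with group means taken out. Between DSS and control limma called none of 14 enteric neuron markers, but 5 were lower at an unadjusted p under 0.05, against 11.6% of all genes. The mean of the 14 lay between -0.24 and 0.13 in control mice, -0.08 and 0.27 in control+L-Arg, -0.72 and -0.14 in DSS and -0.53 and -0.13 in DSS+L-Arg mice. Over the 12 mice this mean and Sst had r = 0.919 and rho = 0.951 (permutation p 3e-05 and 1e-05, adjusted over 27 relations 0.00081 and 0.00027), 0.882 without the 2 farthest mice and 0.807 with group means taken out. With Chga it had r = 0.774 and rho = 0.755 (permutation p 0.0031 and 0.0061, adjusted 0.027 and 0.041), 0.755 without the 2 farthest mice and 0.588 with group means taken out. With Neurod1 it had r = 0.764 and rho = 0.776 (permutation p 0.004 and 0.0043, adjusted 0.027 and 0.038), 0.756 and 0.533 in the same order. With Chgb it had r = 0.729 and rho = 0.678 (permutation p 0.0073 and 0.018, adjusted 0.038 and 0.098, the latter not under 0.05), 0.667 and 0.57. The mean of the smooth muscle markers and Sst had r = 0.797 and rho = 0.839 (permutation p 0.0024 and 0.001, adjusted 0.027 and 0.014), 0.855 and 0.509. With the neuronal level in the fit, the Sst difference between DSS and control was -0.67 (adjusted p = 0.41 by limma), and with the smooth muscle level it was -1.03 (adjusted p = 0.43). The galanin gene Gal is 1 of the 14 markers and was also the gene most like the 10 genes, as given next.

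The genes whose pattern over the 12 mice was most like the mean of the 10 genes, each scaled to its own spread, were Gal (r = 0.969), Resp18 (0.925), Dapk1 (0.915), S100g (0.914) and Rab3c (0.913). For single genes the nearest were Prss23 and Pcsk1n for Chga (0.986 and 0.982), Grp and Slc35g2 for Sst (0.975 and 0.973), Filip1l for Tph1 (0.974), Resp18 for Neurod1 (0.970), Nt5e for Insl5 (0.967), Chga for Chgb (0.965), Azin1 for Sct (0.924), Rarres1 for Pyy (0.917), Gpc1 for Gcg (0.910) and Spaca5 for Cck (0.889). These are the highest of 19938 genes and carry no test. PCSK1N is a granin-like inhibitor of the prohormone convertase PCSK1, and GRP is gastrin-releasing peptide, a neuropeptide.

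A further 90 measured genes of the enteroendocrine system, in 6 lists, place the hormones beside the machinery around them. These lists too were chosen with earlier results of these data known. Between DSS and control, limma called 4 of the 90 at an adjusted p under 0.05, 1 higher and 3 lower, where 4.03% of all genes were called. The median difference was -0.22 and 71 of 90 had a lower mean, against -0.01 and 53.1% over all genes.

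In the list for secretory granules and prohormone processing, 20 of 21 genes had a lower mean in DSS, with a median of -0.49, and 1 was called. This was Ddc, the aromatic amino acid decarboxylase that completes serotonin synthesis, with 9.68, 9.05 and 9.46 in control and 8.48, 7.81 and 8.39 in DSS mice. The Ddc groups did not overlap, and the difference was -1.17 ± 0.21 (SE, adjusted p = 0.013 by limma). Ddc did not follow Tph1 in every mouse. DSS 1 was within the control range for Tph1 (9.94) and below it for Ddc (8.48). Control 2 was the highest control mouse for Tph1 (10.32) and the lowest for Ddc (9.05). In DSS 2 and DSS 3 both genes lay below all control mice. Which cells of the tissue gave the Ddc signal was not tested. The call was lost without control 1 (adjusted p = 0.058) or control 3 (0.061). It was also lost when only the DSS and control mice were fitted (0.080) and with the smooth muscle level (0.078). The unequal-variance test gave 0.50, which is not read as evidence against the call, for the reason given above. Slc18a2, a vesicular monoamine transporter, differed by -0.73 (adjusted p = 0.053), and limma called it with the replicate number as a block (0.044), with low genes left out (0.047), with array weights (0.044) and with the posterior Hox level (0.034). These were 4 of 13 other planned settings. Over the 13 its difference ran from -0.80 to -0.38, and the adjusted p by limma or the unequal-variance test reached 0.50. With single mice left out, limma called Slc18a2 in 2 of 12 fits (adjusted p from 0.046 to 0.15). Pcsk1, the convertase that cuts proglucagon to GLP-1, differed by -1.04 (adjusted p = 0.093). Slc18a2 and Pcsk1 were chosen for mention after their values were seen.

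The 5 genes that clear hormones or serotonin all had lower means in DSS, and limma called 2 lower, against 2.23% of all genes. Maob, a monoamine oxidase, was 9.72, 8.94 and 9.80 in control and 8.17, 8.12 and 8.28 in DSS mice (-1.30 ± 0.20, SE, adjusted p = 0.0062 by limma), and stayed called whichever mouse was left out. The Maob call was lost when only the DSS and control mice were fitted (adjusted p = 0.067) and with the smooth muscle level (0.051). The unequal-variance test, which could hardly call a gene here, gave 0.50. Dpp4, the peptidase that inactivates GLP-1, was 8.85, 8.61 and 8.71 in control and 8.34, 7.88 and 7.79 in DSS mice (-0.72 ± 0.14, SE, adjusted p = 0.019). The Dpp4 call was lost without control 1, control 3 or DSS 2, and with only the DSS and control mice fitted (adjusted p = 0.10). It was also lost with the smooth muscle (0.085) or neuronal level (0.095). For Dpp4 too the unequal-variance test gave 0.50. Both genes are also expressed by cells other than endocrine cells.

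Among 14 nutrient and stimulus sensors, limma called 1 higher, against 1.8% of all genes, and 0 lower, against 2.23%. Trpa1, an irritant-gated cation channel of enterochromaffin cells and sensory nerves, was 5.23, 5.42 and 5.31 in control and 6.13, 6.21 and 6.27 in DSS mice (0.88 ± 0.13, SE, adjusted p = 0.0058 by limma). All its control values lay under the 30th percentile of all signals (5.89), so the rise began at a low signal. In DSS+L-Arg mice Trpa1 was 5.48, 5.53 and 5.74, all below the DSS mice, a difference of -0.62 (adjusted p = 0.070, and 0.036 with the smooth muscle level). The call against control held in limma whichever mouse was left out, and the unequal-variance test did not make it (adjusted p = 0.45).

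The receptor list had 0 of 23 genes called by limma or by the unequal-variance test, and 7 with an unadjusted p under 0.05, against 19.6% of all genes. The smallest p belonged to Sstr1, a somatostatin receptor, with 9.53, 10.00 and 10.03 in control and 9.28, 7.30 and 6.71 in DSS mice (-2.09 ± 0.59, SE, adjusted p = 0.071). Sstr2, another somatostatin receptor, named after its values were seen, differed by -0.97 ± 0.29 (SE, adjusted p = 0.091). With the posterior Hox level limma called both (adjusted p = 0.016 and 0.022). In DSS mice 2 and 3 both receptors were far below control, and in DSS 1 they were just below it. Of the other lists, 0 of 18 transcription factors and 0 of 9 other gut hormones were called by limma or by the unequal-variance test, and 4 and 0 had an unadjusted p under 0.05, against the same 19.6%. The smallest p there were those of Foxa1 (-0.41, adjusted p = 0.13) and the neurotensin gene Nts (-0.84, adjusted p = 0.32).

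**Figure D4:**
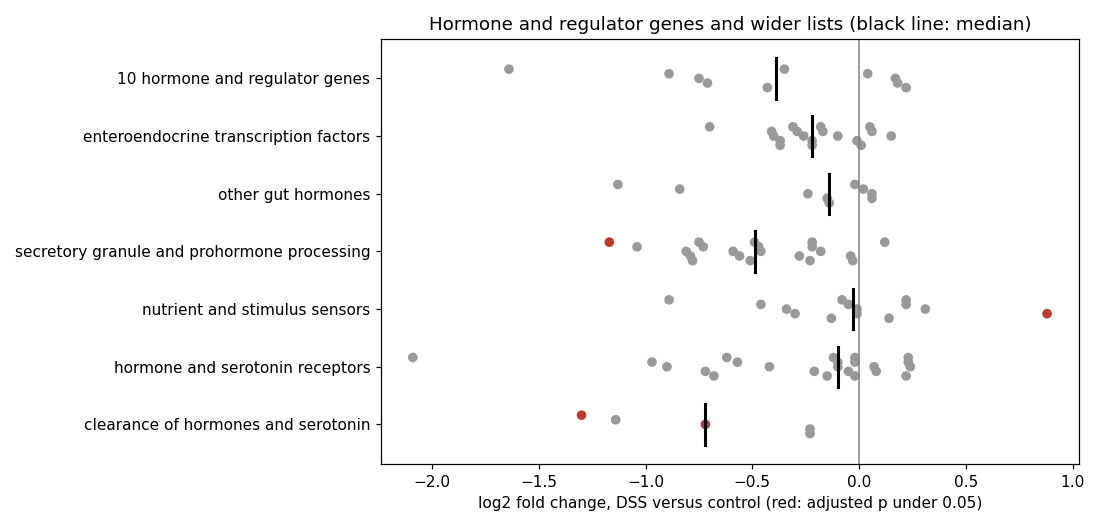
Log2 fold change between DSS and control (x axis) of the 10 genes and of 90 genes in 6 wider lists (rows), with 1 point per gene, red at an adjusted p under 0.05 and a black line at the median. The granule and processing list has its median at -0.49 and 1 red point, Ddc at -1.17, and Trpa1 at 0.88 is the single red point above 0.

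Between DSS+L-Arg and DSS, limma called 0 of the 90 genes, against 0.637% of all genes, 7 had an unadjusted p under 0.05, against 13.5%, and the unequal-variance test called 0. The smallest p was that of Trpa1 above, and among the other gut hormones it was that of Ghrl, the ghrelin gene (0.45, adjusted p = 0.17 by limma). In the remaining lists it was that of Neurog3 (0.43), the factor that starts endocrine commitment, Ddc (0.55), the glucagon receptor gene Gcgr (0.23) and the peptidase gene Mme (-0.13), with adjusted p between 0.29 for Ddc and 0.68 for Mme. Between control+L-Arg and control, limma and the unequal-variance test called 0 of the 90, and 2 had an unadjusted p under 0.05, against 3.44% of all genes. Of other epithelial cell lists, tuft cell markers, which label a chemosensory cell type, fell in DSS for 4 of 8 genes (Dclk1, Trpm5, Pou2f3 and Rgs13). Goblet and absorptive cell lists had 1 lower gene each, Clca1 of 7 and Car4 of 10. Over all genes, limma called 2.23% lower between DSS and control.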

How the data were processed

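The deposited table holds log2 signals per probe set of 12 Affymetrix mouse Gene ST arrays, which the authors made with RMA in Affymetrix Expression Console 1.1, naming build mm9. RMA gives every array the same distribution of probe intensities before they are summarized into probe sets, which hides a shift common to most genes. The number of mice limits precision. Of 35556 probe sets, the 21789 with exactly 1 gene in the platform table were used, with the brightest per gene (19938 genes). Groups and replicate numbers came from the labels. limma 3.58.1 (R 4.3.3) was fitted to all 12 arrays with 1 mean per group (8 residual and 3.37 prior degrees of freedom), with Benjamini-Hochberg adjustment over all genes. The study's SAM was not run on 3 against 3 mice. The fit was tested on simulated data. The 10 genes and all lists (96 pathway genes, 90 measured) were chosen with earlier results of these data known. In each wider list the called genes with the largest change, at most 4, or else the gene with the smallest p, were named. All 10 genes passed a filter on low values (over the 30th percentile in 3 arrays). Same-numbered control and control+L-Arg mice deviated together from their group means (r of 0.205, 0.477 and 0.261). However, control+L-Arg 1 was closer to control 3 (r = 0.272) than to control 1. The mice numbered 2 had low posterior Hox levels in both groups (-1.08 in control and -0.87 in control+L-Arg). The labels name no pairs, and these values do not establish any. In no other comparison was every same-numbered r positive.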

Additional observations from a re-analysis of the deposited data

How the results depend on the processing

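The differences of the 10 genes that the text gives kept their direction and their side of the threshold in 396 of 420 results with 1 array left out and in 441 of 451 results under the other planned settings. With array weights, Insl5 (DSS versus control) was -0.25, and Sst and Tph1 (DSS+L-Arg versus DSS) were -0.06 and -0.28. With the enteric neuron level in the fit, Chgb and Insl5 (DSS versus control) were 0.04 and -0.18. Leaving out single arrays gave, for DSS versus control, Gcg -0.01 to 0.32, Cck -0.18 to 0.18 and Insl5 -0.70 to 0.83, and for DSS+L-Arg versus DSS, Chga -0.56 to 0.08, Chgb -0.44 to 0.24, Neurod1 -0.19 to 0.10, Sst -0.25 to 0.70 and Tph1 -0.26 to 0.55. The causes were not tested.

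The number of the 10 genes called in DSS versus control was 4 with the posterior Hox level and 0 to 1 with single arrays left out. In DSS versus control+L-Arg it was 2 and 0 to 1, and in the F test 2 and 0. With the Hox level and single arrays left out together, a setting chosen after seeing the data, 0 to 6 were called in DSS versus control, and 3 without control+L-Arg 2. Of the 90 genes of the wider lists, DSS versus control called 1 when only the groups compared were fitted, 11 with the Hox level, 1 with the smooth muscle level, 0 by the unequal-variance test and 2 to 10 with single arrays left out. DSS+L-Arg versus DSS called 1 of them with the smooth muscle level and 0 to 1 with arrays left out. The share of all genes called was not counted under these settings, so the counts have no background.

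The replicate number as a block changed no call among the 10 genes (Sst -1.64, adjusted p = 0.089 in DSS versus control) and called Slc18a2. A fit of control and control+L-Arg alone with that block, chosen after seeing the data, called 0. Without the Hox level, the 95% interval of the Insl5 difference between DSS and control ran from -2.10 to 2.47.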
